A study of Mus musculus with 8 samples.

Results

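Ephrins, semaphorins, Slits and netrins are signals that tell a moving cell or a growing axon where to go, and Eph receptors, plexins, neuropilins, Robos and Unc5 proteins read them at the cell surface. The families were described first in the nervous system, and they also act in blood vessels and in connective tissue, where fibroblasts use them to adhere, spread and repel their neighbours. Most of these receptors act on the cytoskeleton.

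The genes of these families were taken from the array table by name: every row whose RefSeq transcript belongs to an ephrin, an Eph receptor, a semaphorin, a plexin, a plexin domain containing gene, a neuropilin, a Slit, a Robo, a netrin or an Unc5 receptor. Of 70 such genes in the annotation, 65 were measured, on 81 probe sets. Rows with the same values counted once, which left 68 profiles among 22523 probe sets that are not Affymetrix controls. Efna3, Epha10, Robo2, Robo3 and Sema3g had no row.

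Gene expression was measured on 8 Affymetrix mouse arrays from 3 lines of p53-null mouse fetal fibroblasts. Ind-8 cells (3 arrays) carry a p53 gene copy whose metallothionein promoter responds to zinc, and they divide asymmetrically when p53 is made. Con-3 cells (3 arrays) are p53-null, carry the vector without p53 and divide symmetrically; the labels call them the congenic parent of Ind-8, whereas the study describes a vector control. tI-3 cells (2 arrays) were made from Ind-8, keep the inducible p53, express the nucleotide synthesis enzyme IMPDH II constitutively and divide symmetrically despite p53. All cultures were harvested after 48 h in medium with 65 µM ZnCl2 and 5 µg/ml puromycin, and the tI-3 medium also held G418. Each state is 1 line, so that state and line cannot be told apart. The values are RMA values on the log2 scale, and an array has no sequencing depth: the number of arrays limits the precision. In RNA from whole cultures, fewer cells with a transcript and less transcript per cell cannot be told apart.

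The lines could be checked against genes that p53 switches on. Cdkn1a, the p53 target that blocks the cell cycle, read 9.70, 9.70 and 9.59 in Ind-8, 5.73, 5.81 and 6.03 in Con-3, and 7.55 and 7.33 in tI-3. All Ind-8 arrays were highest, all Con-3 arrays lowest, and tI-3 lay between them. Mdm2, which degrades p53, averaged 10.90 ± 0.26 in Ind-8 (SD, n = 3), 8.90 ± 0.12 in Con-3 (n = 3) and 9.62 ± 0.08 in tI-3 (n = 2). Ccng1, another p53 target, averaged 12.09 ± 0.31, 9.19 ± 0.04 and 10.85 ± 0.12 in the same order. Trp53 itself read 5.68, 5.87 and 5.80 in Ind-8, 5.21, 5.29 and 5.27 in Con-3, and 5.60 and 5.69 in tI-3; whether its probes lie in the deleted part of the gene is not given in the sources used here. Impdh2 averaged 12.19 in Ind-8, 12.53 in Con-3 and 12.36 in tI-3, and it was lower in Ind-8 than in Con-3 (difference -0.34, adjusted p = 0.0108), while the difference of -0.17 between Ind-8 and tI-3 did not pass the test. Whether its probes detect the transgene of tI-3 is not given either. Impdh1 (8.04, 7.98 and 8.10) passed the test in no comparison. The zinc-binding metallothionein Mt1 was bright on all 8 arrays, with means of 13.88, 13.73 and 13.62, and Mt2 averaged 13.33, 13.45 and 13.07.

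Con-3 replicate 3 and both tI-3 arrays stood apart from the other 5 in measures that are not mouse messenger RNA. The 5′ probe set for 18S ribosomal RNA read 10.97 on Con-3 replicate 3 and between 4.55 and 5.25 on the other 7 arrays. Bacterial hybridization controls that are added to every sample averaged 9.62 on Con-3 replicate 3, 9.43 and 9.71 on the tI-3 arrays, and 8.98 to 9.16 elsewhere. The tI-3 arrays also had the narrowest spread of values, with an SD over probe sets of 2.29 and 2.25, against 2.37 to 2.40 in Ind-8. Their 25th percentile was 4.39 and 4.43, against 4.19 to 4.25 in Ind-8, so that dim probe sets read a little higher in tI-3. Con-3 replicate 3 was near them, with a 25th percentile of 4.38 and an SD of 2.32. The other Con-3 arrays had 25th percentiles of 4.23 and 4.27. Fits without Con-3 replicate 3, with a block by hybridization controls and after quantile normalization was repeated are named for guidance genes where they ended a call. Between Ind-8 and Con-3 the first 2 of these gave the same differences.

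**Figure D1:**
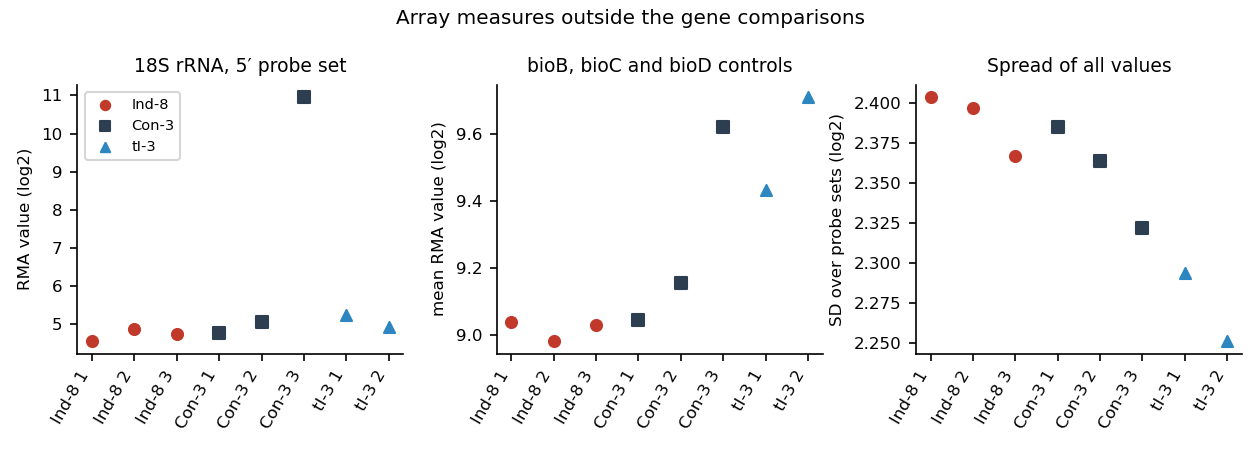
Each point is 1 array, with its line and replicate number on the x axis; the y axes give the 18S ribosomal RNA value (log2), the mean of the bioB, bioC and bioD control probe sets (log2) and the SD over all probe sets (log2). Con-3 replicate 3 reads 10.97 for 18S rRNA while the other arrays stay between 4.55 and 5.25, and the tI-3 arrays have the narrowest spread.

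Between the asymmetrically dividing Ind-8 cells and the p53-null Con-3 cells, 13 of the 68 guidance profiles were higher in Ind-8 and 2 were lower by limma at an adjusted p under 0.05. That is 19.1% and 2.9% of the profiles, where 10.9% of all probe sets were called higher and 11.0% lower. The rank product test, which the study's methods name, called 7 profiles higher and 1 lower, beside 2.22% and 1.44% of all probe sets. The median difference of the 68 profiles was -0.01, and that of all probe sets -0.06, so that most members sat near 0 and a few stood well above it. The 3 arrays of one line lay wholly apart from the 3 of the other for 30.9% of the profiles and 38.0% of all probe sets.

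Between Ind-8 and tI-3, which both make p53 but divide differently, limma called 9 profiles higher in Ind-8 and 9 lower. Each is 13.2% of the profiles, below the 15.6% and 15.5% of all probe sets called in these directions. The rank product test called 2 profiles higher, Robo1 and Unc5b, beside 1.59% of all probe sets. It called 0 lower, beside 0.444% of all probe sets, while 21 were lower by limma at an unadjusted p under 0.05. Each of the 9 lower profiles differed by less than 1 on the log2 scale, and 4 of the 9 higher ones differed by at least 1. The median difference was -0.15 over the 68 profiles and -0.06 over all probe sets. When arrays were blocked by high or low hybridization controls, 2 profiles stayed higher, Plxdc2 and Plxnd1, and 0 lower (limma; 7 higher and 7 lower at an unadjusted p under 0.05). Of the 16 calls lost, the differences of Robo1 (0.89), Ephb6 (0.74), Unc5b (1.17), Ntn4 (0.77), Plxna3 (-0.30), Sema3d (-0.31), Unc5a (-0.24), Epha8 and Sema3a were smaller with the block. Those of Efna5 (0.46), Efnb2 (-0.73), Efnb3 (-0.54), Ephb2 (0.65), Sema3e (-0.73), Sema6a (-0.45) and Slit3 (0.31) were as large or larger. All Ind-8 arrays have the low control level and both tI-3 arrays the high one, so that line and control level can hardly be told apart here. The calls of Efna5, Efnb3, Epha8, Slit3, Plxna3 and Sema3d between these lines were the least stable when single arrays were left out.

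Between tI-3 and Con-3, which both divide symmetrically and differ in p53, limma called 11 profiles higher in tI-3 and 4 lower. These are 16.2% and 5.9% of the profiles, beside 10.2% and 15.1% of all probe sets. The rank product test called Slit2 higher and Epha3 lower, where it called 0.635% and 1.65% of all probe sets. The median difference was 0.14 over the profiles and 0.04 over all probe sets. The 3 comparisons use the same arrays in different pairs and are not independent of each other.

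Signal strength set a limit on many members. The 25th percentile of all probe sets, averaged over the 8 arrays, was 4.30, and 19 of the 68 profiles lay at or below it. These included Epha3 to Epha7 and most class 6 semaphorins. Of these 19 dim profiles, 1 was lower in Ind-8 than in Con-3 (5.3%, beside 11.0% of all probe sets). Between Ind-8 and tI-3, 2 were lower in Ind-8 (10.5%, beside 15.5%). In tI-3 against Con-3, 1 was higher and 1 lower (5.3% each, beside 10.2% and 15.1%). The median difference of the 19 dim profiles between tI-3 and Con-3 was 0.11, with 15 of 19 above 0. After the arrays were quantile-normalized again it was 0.02, with 11 of 19 above 0. The median of all dim probe sets there went from 0.07 to near 0. The median of the dim members was -0.16 and then -0.02 between Ind-8 and tI-3, and -0.08 and then near 0 between Ind-8 and Con-3.

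**Figure D2:**
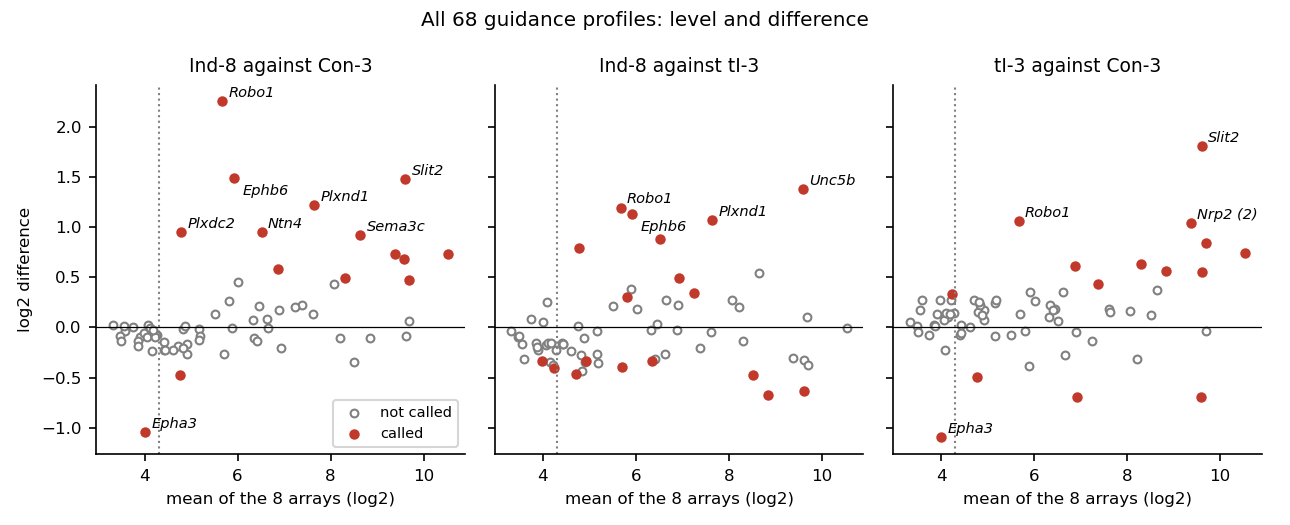
Each point is 1 of the 68 profiles, with its mean over the 8 arrays on the x axis (log2) and the difference between 2 lines on the y axis (log2); filled points were called by limma, and the dotted line marks the 25th percentile of all probe sets, 4.30. Robo1 has the largest difference between Ind-8 and Con-3, 2.26, and Slit2 the largest between tI-3 and Con-3, 1.81.

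Robo1 is a receptor for Slit proteins, and it differed most among the members between Ind-8 and Con-3. It read 6.69, 7.19 and 6.56 in the 3 Ind-8 cultures, 4.39, 4.93 and 4.36 in Con-3, and 5.65 and 5.58 in tI-3. Each line formed a band of its own, Ind-8 above tI-3 and tI-3 above Con-3, without overlap, and in Ind-8 and Con-3 replicate 2 was the highest of the 3. Robo1 was 2.26 higher in Ind-8 than in Con-3 on the log2 scale (SE 0.18, limma adjusted p = 4.37e-05). It was 2.29-fold higher in Ind-8 than in tI-3 (difference 1.20, SE 0.21, adjusted p = 0.0025) and higher in tI-3 than in Con-3 (1.06, SE 0.21, adjusted p = 0.00409). Its Con-3 values were close to the dim end, so that the differences from Con-3 may understate those in transcript. Robo4, the Robo of endothelial cells, stayed between 4.40 and 5.02 on all 8 arrays and was called in no comparison.

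Slit2, a secreted ligand of Robo1, had another order. It read 9.94, 10.26 and 10.05 in Ind-8, 8.63, 8.39 and 8.78 in Con-3, and 10.44 and 10.38 in tI-3. Both lines that make p53 were high and the p53-null line was low, with no overlap. Slit2 was 2.80-fold higher in Ind-8 than in Con-3 (difference 1.48, SE 0.12, adjusted p = 4.16e-05) and 3.51-fold higher in tI-3 than in Con-3 (1.81, SE 0.13, adjusted p = 1.93e-05). Between Ind-8 and tI-3 its difference of -0.33 did not pass the test (adjusted p = 0.0868). Slit3 averaged 5.99 in Ind-8, 5.72 in Con-3 and 5.68 in tI-3 and was called only against tI-3 (difference 0.30), while Slit1, at 4.65 to 5.29, was called in no comparison.

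The promoter windows of 3 genes are shown, Robo1 and Efna4 because they held a match to the p53 half-site, and Slit2 for its TATA box. RefSeq promoters of the mouse build GRCm38.p6, from 250 bases before to 50 bases after the gene's start, were found for 54 of the 65 genes. They were searched on both strands for the p53 half-site consensus, a palindrome of 10 bases that allows several letters at most places. Among all 32851 promoters 8.36% held it, and among the 67 windows of the guidance genes 5 did, those of Robo1, Efna4, Ntn3, Plxna3 and Sema4d. The last 3 were called in neither comparison with Con-3, and Plxnb2, Nrp1, Nrp2, Epha3 and Epha1, called in both, had a window without a match. Robo1 had 2 matches, at bases 38 to 47 and 142 to 151 of its window, and Efna4, an ephrin described with its family, had 1, at bases 162 to 171. Capitals mark the half-site matches in Robo1 (chr16:72662899-72663198, plus strand) and Efna4 (chr3:89337979-89338278, minus strand), and the TATA box letters TATAAA in Slit2 (chr5:47982905-47983204, plus strand).
Robo1: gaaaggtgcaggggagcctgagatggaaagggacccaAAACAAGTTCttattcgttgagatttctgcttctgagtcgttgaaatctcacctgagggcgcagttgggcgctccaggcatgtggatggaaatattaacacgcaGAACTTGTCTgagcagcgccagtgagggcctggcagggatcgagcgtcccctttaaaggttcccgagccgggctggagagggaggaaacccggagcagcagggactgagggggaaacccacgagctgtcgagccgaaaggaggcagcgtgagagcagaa
Efna4: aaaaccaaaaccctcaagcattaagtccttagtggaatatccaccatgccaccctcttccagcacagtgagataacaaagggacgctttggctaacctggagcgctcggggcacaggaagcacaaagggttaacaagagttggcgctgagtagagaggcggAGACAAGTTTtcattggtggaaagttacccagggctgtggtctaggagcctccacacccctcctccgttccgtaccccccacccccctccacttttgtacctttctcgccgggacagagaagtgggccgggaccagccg
Slit2: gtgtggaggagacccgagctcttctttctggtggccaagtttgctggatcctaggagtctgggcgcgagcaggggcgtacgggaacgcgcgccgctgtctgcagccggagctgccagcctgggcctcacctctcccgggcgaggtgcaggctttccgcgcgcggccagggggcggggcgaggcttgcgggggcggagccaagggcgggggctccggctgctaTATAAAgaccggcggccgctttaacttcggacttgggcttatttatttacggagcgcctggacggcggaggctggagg
TATAAA lay in 13.6% of all promoters and in 2 windows of the guidance genes, Slit2 and Efnb2. The Slit2 window held no half-site match. A match describes letters in the window and does not show that a protein binds there.

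**Figure D3:**
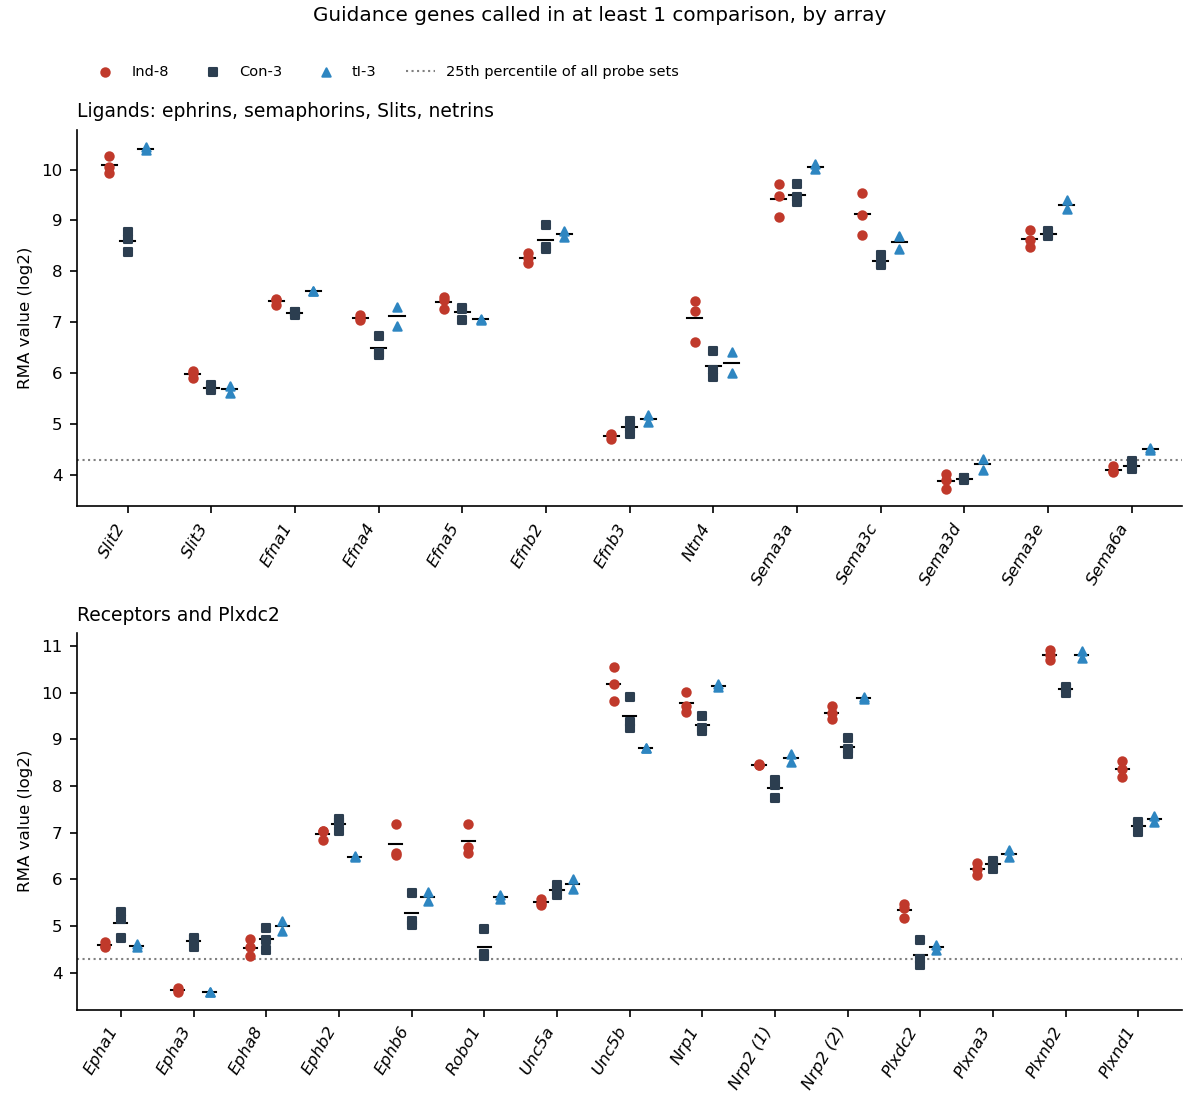
Each point is 1 array (RMA value, log2) for the 28 profiles that limma called in at least 1 comparison, 13 of ligands above and 15 of receptors and Plxdc2 below; short lines are the means of a line's arrays, and numbers in brackets tell 2 profiles of a gene apart. Robo1, Ephb6 and Plxnd1 are highest in Ind-8, Slit2 is high in Ind-8 and tI-3, and Epha3 is high in Con-3.

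Eph receptors are tyrosine kinases that bind ephrins on a neighbouring cell, and 13 of them were measured, on 14 profiles. Ephb6, whose kinase domain lacks catalytic activity, read 6.57, 7.19 and 6.52 in Ind-8, 5.11, 5.70 and 5.01 in Con-3, and 5.54 and 5.73 in tI-3. Its Ind-8 values lay above all others, and its Con-3 and tI-3 values overlapped. Ephb6 was higher in Ind-8 than in Con-3 (difference 1.49, SE 0.21, limma adjusted p = 0.000856) and than in tI-3 (1.13, SE 0.23, adjusted p = 0.0059). The study describes its mRNA as undetectable in Con-3 and tI-3. By quantitative RT-PCR it also reports a fold rise in Ind-8 over Con-3. The Con-3 and tI-3 arrays read 5.01 to 5.73, above the 4.30 at or below which profiles counted as dim. The array differences may still understate those in transcript, and no fold from the arrays is given. The difference of 0.36 between tI-3 and Con-3 was not called.

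Epha3 ran the other way. It read 3.59, 3.67 and 3.63 in Ind-8, 4.73, 4.74 and 4.55 in Con-3, and 3.58 and 3.58 in tI-3. Only the p53-null line read above the 25th percentile of the arrays. Both p53-expressing lines stayed at the dim end, where a difference on the array may understate a difference in transcript. Epha3 was lower in Ind-8 than in Con-3 (difference -1.04, SE 0.09, adjusted p = 5.38e-05) and lower in tI-3 than in Con-3 (-1.09, SE 0.10, adjusted p = 6.18e-05).

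Epha1 was the other receptor called lower in both p53-expressing lines, with means of 4.59 in Ind-8, 5.06 in Con-3 and 4.57 in tI-3. Its Con-3 arrays read 4.74, 5.14 and 5.31, and replicate 3 was the highest; without it neither call remained, at differences of -0.35 and -0.37. Ephb2, a receptor for B ephrins, was low in tI-3: it read 7.04, 6.84 and 7.04 in Ind-8, 7.03, 7.22 and 7.28 in Con-3, and 6.47 and 6.50 in tI-3. Ind-8 and Con-3 overlapped, and both lay above tI-3: the difference was 0.49 between Ind-8 and tI-3 (adjusted p = 0.00894) and -0.70 between tI-3 and Con-3 (adjusted p = 0.00142). Epha8, with means of 4.54, 4.72 and 4.99, was lower in Ind-8 than in tI-3 (difference -0.46, adjusted p = 0.0432). It was not called after quantile normalization was repeated (-0.27) or with the block by hybridization controls (-0.11). Epha2 ranged from 9.50 to 9.89 and was called in no comparison, as were Ephb3 (7.27 to 7.98) and Ephb4 (7.97 to 8.47).

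Ephrins are the ligands of Eph receptors, tethered to the membrane by a lipid anchor (A) or a transmembrane segment (B). Of 7 measured, Efna4 was called in both comparisons with the p53-null line. It read 7.04, 7.08 and 7.14 in Ind-8, 6.40, 6.37 and 6.73 in Con-3, and 7.30 and 6.93 in tI-3. The p53-expressing lines overlapped each other and lay above Con-3, by 0.59 (SE 0.13, adjusted p = 0.00787) and 0.62 (SE 0.14, adjusted p = 0.00901). The second difference was not called with the block by hybridization controls (0.39) or without tI-3 replicate 1 (0.43). Efna1 averaged 7.41 in Ind-8, 7.18 in Con-3 and 7.62 in tI-3, and was called only in tI-3 against Con-3 (0.43, adjusted p = 0.0061), and not with the block by hybridization controls (0.42).

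Of the B ephrins, Efnb2 and Efnb3 were called. Efnb2, a ligand that also marks arterial endothelium, read 8.37, 8.26 and 8.16 in Ind-8, 8.91, 8.48 and 8.44 in Con-3, and 8.79 and 8.68 in tI-3. All 3 Ind-8 arrays lay below all others; the difference from tI-3 passed the test (-0.47, adjusted p = 0.0321) and that from Con-3 did not (-0.35, adjusted p = 0.0823). Efnb3 was also lower in Ind-8 than in tI-3 (difference -0.34, adjusted p = 0.0364), and Efna5 was 0.34 higher (adjusted p = 0.0405). After the arrays were quantile-normalized again these differences were -0.15 and 0.20, and neither was called. Efnb1, between 6.35 and 7.06, and Efna2, between 4.24 and 4.59, were called in no comparison.

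Class 3 semaphorins are secreted, and most bind a neuropilin joined to a plexin. Sema3c was the only semaphorin of 20 profiles called between Ind-8 and Con-3. It read 8.72, 9.54 and 9.10 in Ind-8, 8.15, 8.33 and 8.13 in Con-3, and 8.70 and 8.45 in tI-3. Ind-8 was highest and Con-3 lowest, without overlap, though the lowest Ind-8 array was only just above the higher tI-3 array. The difference was 0.92 between Ind-8 and Con-3 (1.89-fold, SE 0.18, adjusted p = 0.00474) and 0.55 between Ind-8 and tI-3, which did not pass (adjusted p = 0.0585).

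Sema3a and Sema3e, which repel axons and endothelial cells, were highest in tI-3. Sema3e read 8.49, 8.82 and 8.62 in Ind-8, 8.73, 8.80 and 8.70 in Con-3, and 9.40 and 9.23 in tI-3. Sema3a read 9.07, 9.48 and 9.72 in Ind-8, 9.36, 9.45 and 9.71 in Con-3, and 10.00 and 10.11 in tI-3. For both genes Ind-8 and Con-3 overlapped and tI-3 lay above them. Sema3e was 1.48-fold higher in tI-3 than in Con-3 (0.57, SE 0.12, adjusted p = 0.00534) and lower in Ind-8 than in tI-3 (-0.67, SE 0.12, adjusted p = 0.0026). The first of these calls was lost without tI-3 replicate 1 (0.48). Sema3a gave 0.55 (adjusted p = 0.043) and -0.64 (adjusted p = 0.0217). With the block by hybridization controls these were 0.35 and -0.33, and neither was called there or when either tI-3 array was left out. The dim Sema3d and Sema6a, named after their values were seen, were also lower in Ind-8 than in tI-3 (differences -0.33 and -0.41), the first a call lost without Con-3 replicate 3 (-0.33). Sema6a was 0.33 higher in tI-3 than in Con-3, a call lost without Con-3 replicate 3 (0.32), with the block by hybridization controls (0.36) and after the arrays were quantile-normalized again (0.21). After that normalization the differences of Sema3d and Sema6a between Ind-8 and tI-3 were -0.16 and -0.21 and were not called either.

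Plexins and neuropilins are the receptors of semaphorins. Plxnd1, which binds Sema3e directly, read 8.53, 8.20 and 8.37 in Ind-8, 7.02, 7.21 and 7.22 in Con-3, and 7.23 and 7.36 in tI-3. Ind-8 lay far above the others, and tI-3 just above Con-3. Plxnd1 was 2.33-fold higher in Ind-8 than in Con-3 (difference 1.22, SE 0.11, adjusted p = 7.02e-05) and 2.10-fold higher than in tI-3 (1.07, SE 0.12, adjusted p = 0.000262). The difference of 0.15 between tI-3 and Con-3 was not called.

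Plxnb2, a receptor for class 4 semaphorins, had the pattern of Slit2. It read 10.81, 10.70 and 10.91 in Ind-8, 10.00, 10.12 and 10.10 in Con-3, and 10.74 and 10.89 in tI-3. The p53-expressing lines overlapped and lay above Con-3, by 0.73 (1.66-fold, SE 0.09, adjusted p = 0.000511) and 0.74 (1.67-fold, SE 0.10, adjusted p = 0.00069). Of the other 7 plexins only Plxna3 was called, lower in Ind-8 than in tI-3 (difference -0.33, adjusted p = 0.0427), and not without Con-3 replicate 3, where the difference was the same (-0.33). Plxna1, Plxna2, Plxna4, Plxnb1, Plxnb3 and Plxnc1 were called in no comparison.

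Both neuropilins were higher in the p53-expressing lines. Nrp1 read 10.01, 9.59 and 9.72 in Ind-8, 9.50, 9.24 and 9.18 in Con-3, and 10.12 and 10.18 in tI-3. One of 2 Nrp2 profiles read 9.56, 9.72 and 9.45 in Ind-8, 8.80, 9.03 and 8.69 in Con-3, and 9.91 and 9.86 in tI-3. In both, tI-3 was highest, Ind-8 next and Con-3 lowest, without overlap. This Nrp2 profile was 0.73 higher in Ind-8 than in Con-3 (SE 0.11, adjusted p = 0.00128) and 1.04 higher in tI-3 than in Con-3 (SE 0.12, adjusted p = 0.000289). The other Nrp2 profile gave 0.49 and 0.63, both called. Nrp1 was 0.47 higher in Ind-8 than in Con-3 (adjusted p = 0.0221), a call lost without Con-3 replicate 3 (0.41), and 0.85 higher in tI-3 than in Con-3 (adjusted p = 0.00175). Neither gene was called between Ind-8 and tI-3.

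Plxdc2 encodes a membrane protein with a plexin-like domain and is not a plexin. It read 5.39, 5.16 and 5.46 in Ind-8, 4.30, 4.17 and 4.69 in Con-3, and 4.60 and 4.49 in tI-3. The Ind-8 values stood apart, while the others lay close to the 25th percentile of the arrays and overlapped. Plxdc2 was higher in Ind-8 than in Con-3 (difference 0.95, SE 0.14, adjusted p = 0.00103) and than in tI-3 (0.79, SE 0.15, adjusted p = 0.00451). Because Con-3 and tI-3 were near the dim end, these differences may understate those in transcript, and no fold is given. Its relative Plxdc1 stayed between 4.22 and 4.85 and was called in no comparison.

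Netrins are secreted or matrix-bound ligands, and Unc5 proteins are their repulsive receptors. Ntn4, a netrin of basement membranes, read 6.62, 7.22 and 7.43 in Ind-8, 5.92, 6.43 and 6.06 in Con-3, and 6.41 and 6.00 in tI-3. Ind-8 lay above the others, which overlapped, and the lowest Ind-8 array was close to the highest Con-3 array. Ntn4 was 1.93-fold higher in Ind-8 than in Con-3 (difference 0.95, SE 0.21, adjusted p = 0.00889) and 1.85-fold higher than in tI-3 (0.89, SE 0.23, adjusted p = 0.0171). The second call was lost without tI-3 replicate 2 (0.68) and without Ind-8 replicate 2. Ntn1 (6.74 to 7.18), Ntn3 (3.74 to 4.10) and Ntn5 (4.96 to 5.38) were called in no comparison.

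Unc5b, a netrin receptor, read 10.56, 9.82 and 10.18 in Ind-8, 9.90, 9.25 and 9.36 in Con-3, and 8.81 and 8.81 in tI-3. Ind-8 and Con-3 overlapped, with replicate 1 the highest in each, and tI-3 lay below both. Unc5b was 2.60-fold higher in Ind-8 than in tI-3 (difference 1.38, SE 0.22, adjusted p = 0.00181). Its differences of 0.68 between Ind-8 and Con-3 (adjusted p = 0.033) and -0.69 between tI-3 and Con-3 (adjusted p = 0.0437) passed more narrowly, and neither was called without Con-3 replicate 3 (0.61 and -0.76). The second was also not called with the block by hybridization controls (-0.55) or after quantile normalization was repeated (-0.58). Unc5a was lower in Ind-8 than in tI-3 (difference -0.39, adjusted p = 0.0222). Unc5c, between 6.13 and 6.69, and Unc5d, between 3.21 and 3.48, were called in no comparison.

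**Figure D4:**
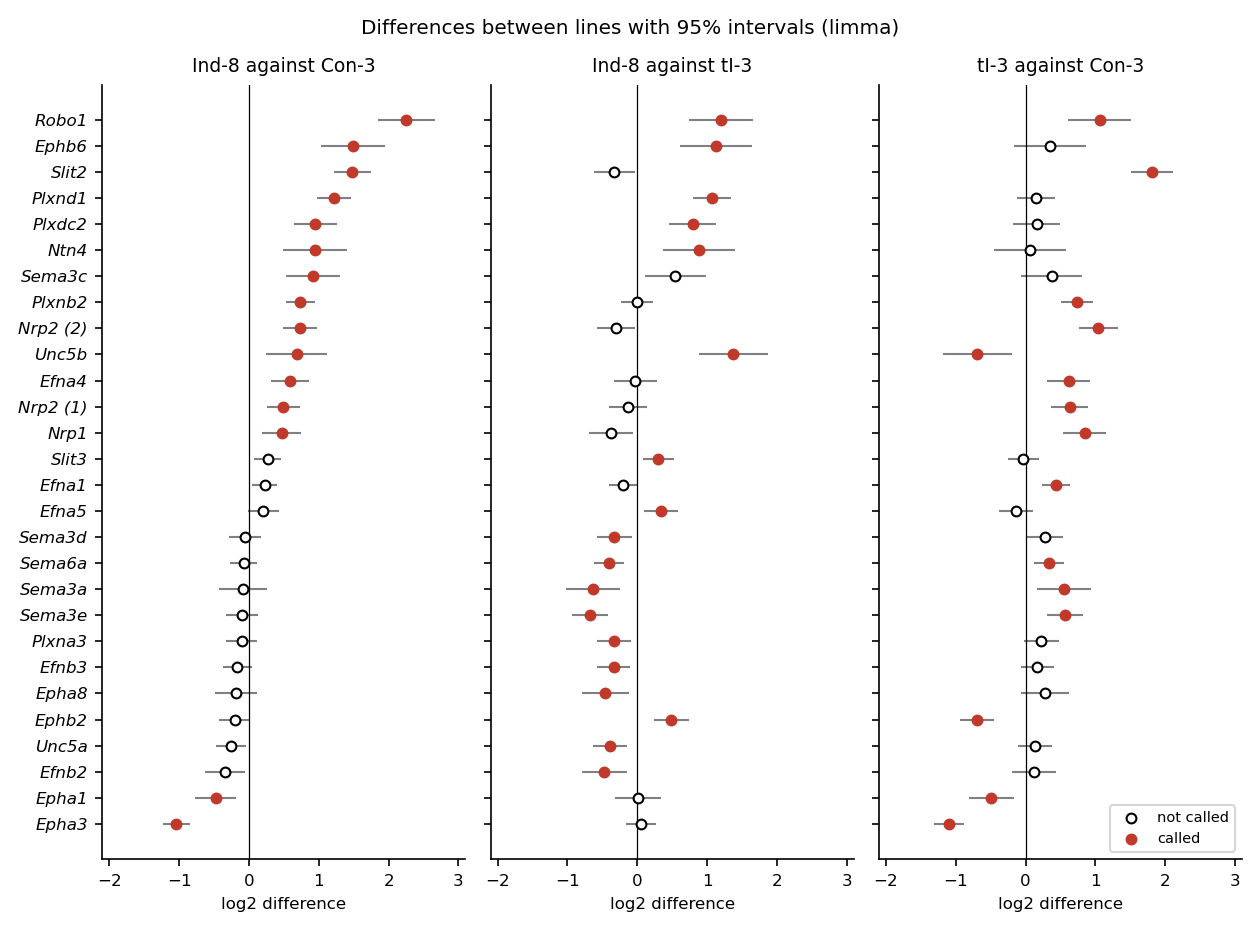
Points are log2 differences between 2 lines for the 28 profiles called in at least 1 comparison, with 95% intervals from limma as bars; filled points were called at an adjusted p under 0.05. Robo1 lies above 0 in all 3 panels, Ephb6, Plxnd1, Plxdc2 and Ntn4 in both comparisons with Ind-8, and Slit2, the neuropilins and Plxnb2 in both comparisons with Con-3.

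The other 40 profiles, of 38 genes, were called in no comparison, and 24 of them lay above the 25th percentile. Their differences between Ind-8 and Con-3 ran from -0.27 (Slit1) to 0.45 (Sema4c), those between Ind-8 and tI-3 from -0.43 (Sema4d) to 0.38 (Plxna2), and those between tI-3 and Con-3 from -0.39 (Plxna2) to 0.36 (Plxna1).

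By role, 8 of 32 receptor profiles were higher in Ind-8 than in Con-3 and 2 lower (6.2%), and 4 of 34 ligand profiles were higher (11.8%), beside 10.9% and 11.0% of all probe sets. Between Ind-8 and tI-3, 5 receptor profiles were higher (15.6%) and 3 lower (9.4%), and 3 ligand profiles were higher (8.8%) and 6 lower (17.6%), beside 15.6% and 15.5%. Between tI-3 and Con-3, 5 receptor profiles were higher (15.6%) and 4 lower (12.5%), and 6 ligand profiles were higher (17.6%), beside 10.2% and 15.1%. In both comparisons with Con-3, limma called 0 ligand profiles lower (2 in Ind-8 and 0 in tI-3 at an unadjusted p under 0.05), as did the rank product test (0). Whether the roles differ was not tested.

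Genes that act with these families were followed in 4 lists, of which 63 of 65 genes were found on 69 profiles. Between Ind-8 and Con-3, limma called 10 profiles higher (14.5%) and 6 lower (8.7%), beside 10.9% and 11.0% of all probe sets. The rank product test called 0 higher and 1 lower there, beside 2.22% and 1.44%. Between Ind-8 and tI-3, 14 were higher by limma (20.3%) and 10 lower (14.5%), beside 15.6% and 15.5%. By the rank product test 3 were higher and 0 lower, beside 1.59% and 0.444%. Between tI-3 and Con-3, 4 were higher by limma (5.8%) and 15 lower (21.7%), beside 10.2% and 15.1%. By the rank product test 0 were higher and 5 lower, beside 0.635% and 1.65%. Partner and marker calls are given without the block by hybridization controls. Over guidance, partner, marker and check genes together, 73 results lost their call with that block. Of the guidance calls, 12 of 15 were kept between Ind-8 and Con-3, and 2 of 18 between Ind-8 and tI-3. Between tI-3 and Con-3, 10 of 15 were kept. More of the lost calls were thus of the other genes than of the guidance genes. The partner and marker calls below may therefore not hold with the block.

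In the netrin list, Neo1, a receptor for netrins and RGM proteins, read 10.71, 10.43 and 10.07 in Ind-8, 9.84, 9.51 and 9.20 in Con-3, and 10.60 and 10.42 in tI-3. It was high in the p53-expressing lines, by 0.89 (adjusted p = 0.00666) and 1.00 (adjusted p = 0.00553), as Slit2 and the neuropilins were. Dscam and Draxin were lower in Ind-8 than in tI-3 (differences -0.35 and -0.29).

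In the semaphorin and plexin list, 23 profiles, 1 was higher (4.3%) and 5 lower (21.7%) in Ind-8 than in Con-3, beside 10.9% and 11.0% of all probe sets. Against tI-3, 5 were higher in Ind-8 (21.7%) and 4 lower (17.4%), beside 15.6% and 15.5%, and 1 was higher (4.3%) and 8 lower (34.8%) in tI-3 than in Con-3, beside 10.2% and 15.1%. Farp1, a guanine exchange factor that binds plexins, read 10.70, 10.39 and 10.67 in Ind-8, 11.54, 11.66 and 11.53 in Con-3, and 10.18 and 10.42 in tI-3. It was highest in the p53-null line, with differences of -0.99 in Ind-8 (adjusted p = 0.000228) and -1.27 in tI-3 (adjusted p = 9.45e-05). Mical1, an enzyme that takes actin filaments apart below plexins, read 8.33, 8.09 and 8.28 in Ind-8, 7.81, 8.02 and 8.01 in Con-3, and 7.07 and 6.55 in tI-3. Mical2 gave a like picture, 5.98, 6.09 and 6.80 in Ind-8, 6.86, 6.96 and 6.56 in Con-3, and 4.87 and 5.60 in tI-3. Both were low in tI-3, with differences of -1.14 and -1.56 from Con-3, and Met, a receptor kinase that binds B plexins and was named here after its values were seen, was 0.91 higher in tI-3 than in Con-3. Dpysl3, a cytoplasmic mediator of semaphorin signals, was lower in Ind-8 than in Con-3 on both of its profiles (differences -0.61 and -0.68). Rras, a GTPase that plexins switch off, was 0.46 higher in Ind-8 than in Con-3, and Farp2 was 1.02 higher in Ind-8 than in tI-3.

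In the Slit and Robo list of 14 genes, Enah, which extends actin filaments, read 4.94, 5.05 and 5.43 in Ind-8, 5.76, 5.87 and 5.87 in Con-3, and 4.45 and 4.42 in tI-3. The lines formed 3 separate bands, with Con-3 highest and tI-3 lowest. Enah was lower in Ind-8 than in Con-3 (difference -0.70, adjusted p = 0.00285) and in tI-3 than in Con-3 (-1.40, adjusted p = 9.63e-05). Its relative Vasp was 0.55 higher in Ind-8 than in Con-3. Usp33, a deubiquitinase that binds Robo1, was 0.94 higher in tI-3 than in Con-3, and Evl was lower there (difference -0.67). Srgap3, a Robo-binding GTPase regulator, was 0.42 higher in Ind-8 than in tI-3.

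In the Eph and ephrin list of 24 profiles, 7 were higher in Ind-8 than in Con-3 (29.2%, beside 10.9% of all probe sets), among them Rasa1 (0.65), Tiam1 (0.59 and 0.34 on its 2 profiles) and Sipa1l1 (0.52). There limma called 0 lower (2 at an unadjusted p under 0.05). The rank product test called 0 of the list higher and 0 lower, beside 2.22% and 1.44% of all probe sets. Against tI-3, 6 of the 24 were higher in Ind-8 and 3 lower (12.5%), beside 15.6% and 15.5%, and 1 was higher (4.2%) and 4 lower (16.7%) in tI-3 than in Con-3, beside 10.2% and 15.1%. Fyn, a kinase that acts below Eph receptors and ephrins, read 10.07, 9.99 and 9.88 in Ind-8, 10.20, 9.94 and 9.96 in Con-3, and 8.79 and 8.52 in tI-3. Ind-8 and Con-3 overlapped and tI-3 was low, with a difference of -1.38 from Con-3 (adjusted p = 6.25e-05). Tiam1, an exchange factor for Rac, averaged 8.73 in Ind-8, 8.14 in Con-3 and 7.36 in tI-3 on the first of these. Adam10, a protease that cuts ephrins, was 0.56 higher in tI-3 than in Con-3, and Itsn1 was lower in Ind-8 than in tI-3 on 1 of its 3 profiles (-0.71). The other Itsn1 profiles gave -0.04 and 0.21 there and were not called. The last of them was 0.41 higher in Ind-8 than in Con-3, where the first gave -0.34 and was not called.

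**Figure D5:**
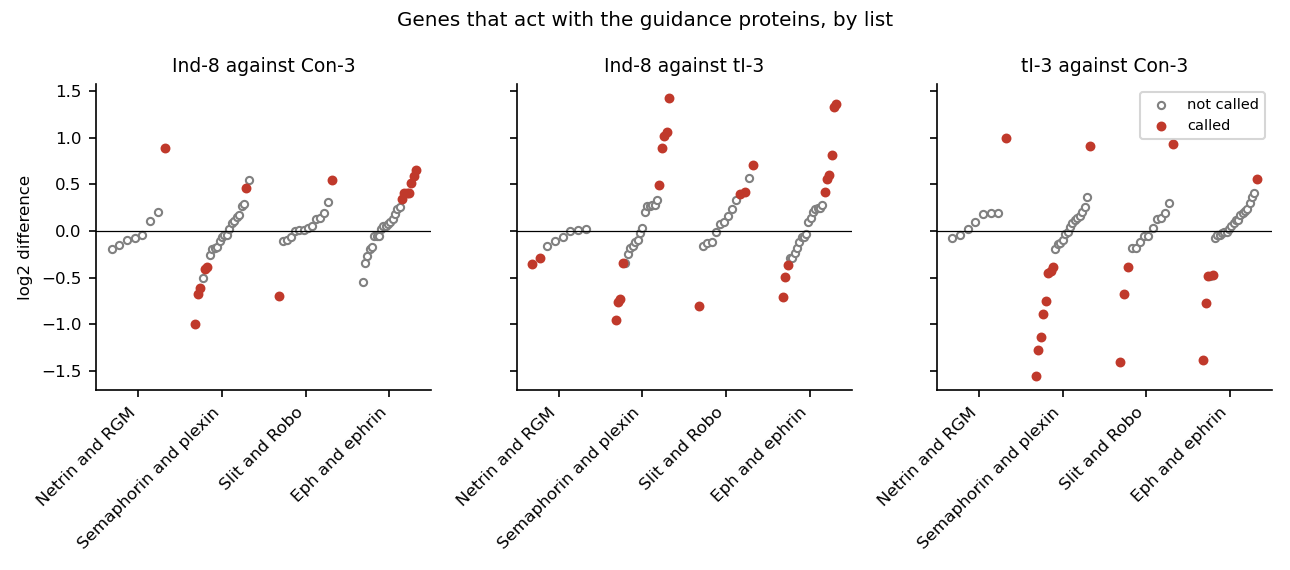
Each point is 1 of the 69 profiles of genes that act with the guidance families, by list on the x axis and ordered by difference within a list; the y axis gives the log2 difference between 2 lines, and filled points were called by limma. Between tI-3 and Con-3, 15 called profiles lie below 0 and 4 above it.

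The labelled cell type was checked against its markers. Fibroblast genes had summed levels (log2) of 15.65, 15.76 and 15.74 in Ind-8, 15.35, 15.45 and 15.46 in Con-3, and 15.45 and 15.29 in tI-3. The brightest were Vim (mean 13.89), S100a4 (13.86) and Fn1 (12.80), and Dcn averaged 5.65. Of the 11 genes, Lum (3.86) and Thy1 (4.16) averaged below 4.30, at the dim end. Of these 11 genes limma called 2 higher (18.2%) and 1 lower (9.1%) in Ind-8 than in Con-3, beside 10.9% and 11.0% of all probe sets. It called 5 higher (45.5%) and 1 lower (9.1%) in Ind-8 than in tI-3, beside 15.6% and 15.5%, and 3 higher and 3 lower (27.3% each) in tI-3 than in Con-3, beside 10.2% and 15.1%. Smooth muscle genes, which contractile fibroblasts also use, summed to 14.37, 14.27 and 14.51 in Ind-8, 14.43, 14.18 and 14.40 in Con-3, but 13.25 and 13.27 in tI-3. The tI-3 line thus stood apart, with Actg2 at 5.19 and 5.00 against 8.82 to 10.32 on the other arrays. Actg2 (-4.29), Cnn1 (-3.37) and Acta2 (-0.89) were lower in tI-3 than in Con-3, which is 3 of the 5 genes, beside 15.1% of all probe sets. Myh11 (0.28) and Des (0.18) were not called there, and Myh11 was lower in Ind-8 than in tI-3 (-0.35). Of the fibroblast genes, Col3a1 (-2.68), Col1a1 (-1.06) and Pdgfra (-1.04) were lower in tI-3 than in Con-3, and Col1a2 (-0.01) was not called. Fn1 (0.28), Pdgfrb (0.33) and the dim Thy1 (0.37) were higher there. The members Unc5b and Ephb2, and Fyn, Mical1 and Mical2, were also low in tI-3; whether these differences go together was not tested.

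Markers of other cell types were checked as well. Neuronal genes summed to 7.45 to 7.78 over the 8 arrays. Snap25, Nefl, Nefm, Syt1 and Tubb3 averaged below the 25th percentile. Map2 (mean 5.51), Gap43 (5.24) and both Rbfox3 profiles (4.59 and 4.60) averaged above it. Endothelial genes summed to 7.22 to 7.72; Pecam1, Cdh5 and Tek were below the 25th percentile, and Kdr averaged 5.84, 6.16 and 6.60 in the 3 lines. Immune genes summed to 6.36 to 6.81. Of the 3 found, Ptprc lay below the 25th percentile, and the brightest, Cd3e, read 5.28 to 5.88. Epithelial genes summed to 9.29 to 10.55, a level carried by Krt19 (mean 9.78). Cdh1 (3.61), Epcam (4.29) and Krt18 (3.89) averaged below the 25th percentile, and Krt8 averaged 4.51. Apart from Krt19, the epithelial genes were called in no comparison. Krt19 was 0.82 higher in Ind-8 than in Con-3 and 1.04 higher than in tI-3. Of the neuronal genes Gap43 was lower in Ind-8 (difference -0.69) and in tI-3 (-0.90) than in Con-3, and Tubb3 was lower in tI-3 than in Con-3 (-0.52) and 0.39 higher in Ind-8 than in tI-3, where 1 of 2 Rbfox3 profiles was lower in Ind-8 (-0.29). Of the 3 immune genes limma called 2 lower in Ind-8 than in tI-3 (66.7%, beside 15.5% of all probe sets). Cd3e was among them (difference -0.43), and it was 0.42 higher in tI-3 than in Con-3. Kdr was lower in Ind-8 than in Con-3 (difference -0.32) and than in tI-3 (-0.76), and Kdr (0.44) and Vwf (0.49) were higher in tI-3 than in Con-3.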

How the data were processed

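The authors' deposited RMA values, on the log2 scale and summarized with a RefSeq probe set definition, were used as they stood. Of 22587 deposited probe sets, 64 Affymetrix controls were left out of the tests, and 22523 remained. limma 3.58.1 (R 4.3.3) was fitted to all 8 arrays with 1 mean per line, and p was adjusted by Benjamini and Hochberg over all 22523 probe sets within each comparison; a call needed an adjusted p under 0.05. The rank product test of the study's methods was written anew with 100 permutations (Python 3.11.15, numpy 2.4.6) and called at an estimated share of false positives under 0.05. Rows with identical values counted once among members and lists. Members were described by name where limma called them with a difference of at least 1, where the rank product test called them, or where they were among the next 5 called by size of difference in a comparison; Ephb6, Robo1 and Plxdc2 were named in any case. Their ligands or receptors within the families were named too. Sema3d, Sema6a and the remaining members, and marker genes, were named after their values were seen. Partner genes were named when among the 3 called with the largest differences in a list and comparison. The 4 partner lists (netrin, semaphorin, Slit, Eph) and markers of fibroblasts, smooth muscle, neurons, endothelium, epithelium and immune cells were followed; another list is not reported here. Ephb6, Robo1 and Plxdc2 were named by the study from these same arrays, so that their array values here are not independent evidence. The study also assayed these 3 genes by quantitative RT-PCR. It reports Plxdc2 as detected in Ind-8 and not in Con-3, and Ephb6 and Robo1 as higher in Ind-8. Its p for Robo1 was not under 0.05. The members and lists were chosen with earlier results of these data known. Alternatives changed the test, the prior, the filter, the scaling, blocks by replicate number and by hybridization controls, and left out each array in turn.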

Additional observations from a re-analysis of the deposited data

How the results depend on the processing

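Of 48 called results of the guidance genes, 22 kept their call in every limma refit that tested them and 0 changed direction; the rank product test and the minimum difference are not counted there. Between Ind-8 and Con-3, the 13 higher calls became 7 by the rank product test and 4 with a minimum difference of 1, and stayed between 11 and 13 when 1 array was left out. The 2 lower calls became 1 by the rank product test, with a minimum difference of 1, among the 49 profiles above the 25th percentile, with the hybridization-control block, and without Ind-8 replicate 1, Ind-8 replicate 2, Con-3 replicate 2 or Con-3 replicate 3. Between Ind-8 and tI-3, the 9 higher calls became 2 by the rank product test, 4 with a minimum difference of 1, 2 with the hybridization-control block and 5 without tI-3 replicate 2. The 9 lower calls became 0 by the rank product test, 0 with a minimum difference of 1 and 0 with the hybridization-control block (limma at an unadjusted p under 0.05: 21 without and 7 with the block). The count was 5 without Ind-8 replicate 2, Ind-8 replicate 3 or tI-3 replicate 1, of which 5, 4 and 1 were among the 9. It was 2 without tI-3 replicate 2, both among the 9, and 10 without Con-3 replicate 1, of which 8 were. After repeated quantile normalization, 13 of the 18 calls between these lines were kept. Between tI-3 and Con-3, the 11 higher calls became 1 by the rank product test, 3 with a minimum difference of 1 and 7 with the hybridization-control block. The 4 lower calls became 1 by the rank product test and 1 with a minimum difference of 1, and 2 without Con-3 replicate 3, tI-3 replicate 1 or tI-3 replicate 2.

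Replicate numbers were not taken as pairs. With them as a block the counts were 14 higher and 3 lower, 9 and 12, and 11 and 5 in the order above. Deviations from the line means correlated by 0.27, 0.0286 and 0.381 between Ind-8 and Con-3 arrays of the same number, and Ind-8 replicate 2 correlated more with Con-3 replicate 1 (0.117).

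Each state is 1 cloned line, with 3, 3 and 2 arrays, so that a difference between lines cannot be told apart from one between clones. The comparisons share arrays. tI-3 differs from Con-3 in p53, the transgene and G418 at once.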
